A study of Mus musculus with 2 samples.

Results

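Clu Cyp2f2 Myoc FAPs were 242 of the 13432 cells captured from regenerating mouse gastrocnemius, 103 from the WT-labelled library and 139 from the KO-labelled library. Fibro-adipogenic progenitors (FAPs) are the Pdgfra-expressing mesenchymal cells that lie between muscle fibers. The cells were selected on measured values. A cell was taken as a gated FAP if Pdgfra was detected and Pecam1, Cdh5 and Ptprc, which mark endothelial and blood cells, were all at 0. It was taken as a Clu Cyp2f2 Myoc FAP if at least 2 of the 4 genes Cyp2f2, Myoc, Stmn2 and Clec1a were also detected. At most 1 gene each was allowed from the set of Pi16, Dpp4, Sbsn and Efhd1 and from the set of Hsd11b1, Mme, Bmper and Aldh1a2, and at most 2 of the 5 tendon genes Tnmd, Chad, Kera, Scx and Cilp2.

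Muscle of male C57BL/6J mice was injected with cardiotoxin (CTX), a toxin that kills fibers, and was taken 14 days later. The animals were littermates from heterozygous crosses, either WT or with a global knockout of Gsdme (KO), a gasdermin whose cleaved form opens pores in the cell membrane. The KO animals lacked the gene in every cell type, not in FAPs alone, and both genotypes received CTX, so no uninjured cells were compared. There were 5 mice per genotype and 1 library of each was analysed. Whether the animals were pooled is not stated. RNA was read from its 5′ end in droplets, and each molecule carried a unique molecular identifier (UMI).

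FAPs build the matrix of the muscle interstitium, feed muscle stem cells after injury and are the source of fat and scar when repair goes wrong. They are not uniform: a Dpp4 Pi16 population is regarded as the least committed, and others sit near vessels, fibers or nerves. Clusterin (Clu) is a secreted chaperone, myocilin (Myoc) a secreted glycoprotein, Cyp2f2 a cytochrome P450 best known from airway club cells, and Klf5 a zinc-finger transcription factor. Rspo3 is an R-spondin that amplifies WNT signals, and Meox1 is a homeobox factor of the paraxial mesoderm.

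The cells held 717511 UMIs in the WT-labelled library and 1023563 in the KO-labelled library, with medians of 6699 and 7494 UMIs per cell. After each cell was thinned to 1000 UMIs, which left out 1 shallower cell of the WT-labelled library, the medians were 648 and 636 genes per cell, against 637 and 622 in the other gated FAPs. Ribosomal protein genes took a median of 12.7% of the UMIs in both libraries. Levels are UMIs summed over the cells of a library per 1000000 UMIs (CPM). With 1 library per genotype no test between genotypes was possible, and every interval given is a 95% interval, exact except for differences between shares, that covers counting error only. Gsdme gave 2 UMIs in the WT-labelled library (2.79 CPM, 0.338 to 10.1) and 6 in the KO-labelled library (5.86 CPM, 2.15 to 12.8), which is too few to check the labels. The other gated FAPs gave 61 UMIs (6.06 CPM, 4.64 to 7.79) and 55 UMIs (3.79 CPM, 2.86 to 4.94), so Gsdme RNA was read in the KO-labelled library too, and each direction between libraries rests on the labels alone. Of the 12 endothelial marker genes, 3 were at 0 in each library, Pecam1 and Cdh5 by the rule, and together they took 0.0452% and 0.0509% of the UMIs. The other lists took 0.0120% and 0.0116% (14 immune genes, 4 at 0 in each), 0.0146% and 0.0188% (11 muscle-fiber genes, 1 at 0), 0.0137% and 0.00821% (10 pericyte genes, 1 at 0), and 0.00279% and 0.00322% (5 red-cell genes, 1 at 0). The 10 Schwann genes, none and 6 of them at 0, took 0.0615% and 0.0443%, most of it Pmp22, and Sox10, the defining factor of that lineage, gave 2 UMIs in the WT-labelled library and 0 in the KO-labelled library. The 7 muscle stem cell genes, 4 and 3 of them at 0, took 0.00502% and 0.00791%. No selected cell was called a doublet by Scrublet, and of the 4 barcodes that the libraries shared none belonged to a selected cell.

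Most of the selected cells passed on a pair of genes. Myoc together with Clec1a, a C-type lectin-like receptor also read in endothelial cells, was the whole of the evidence in 115 cells, and Myoc with Cyp2f2 in 39. Another 17 cells held Myoc with Stmn2, a microtubule regulator of neurons, and 4 cells held another pair. Of the rest, 26 cells of the WT-labelled library and 31 of the KO-labelled library held 3 of the genes, and 7 and 3 cells held all 4. Cells just outside the threshold, 588 gated FAPs with 1 of the 4 genes and otherwise alike, had intermediate levels of Clu and Klf5, which the rule did not use. Clu stood at 33.6 CPM in the WT-labelled library and 31.3 CPM in the KO-labelled library where none of the 4 genes was detected, at 157 and 115 CPM with 1, at 523 and 473 CPM with 2, at 1201 and 719 CPM with 3 and at 2356 and 2303 CPM with 4. Clu was thus higher at each step in both libraries, also below the threshold. Klf5 went from 32.0 and 19.8 CPM with none, through 59.0 and 34.8 CPM with 1, to 174 and 88.9 CPM with 2 and 294 and 178 CPM with 3. Efemp1, a fibulin, stood at 86.6 and 61.8 CPM with 1 gene, 34.4 and 27.1 CPM with 2, and 5.25 and 13.3 CPM with 3. Dcn, which encodes the proteoglycan decorin of fibroblasts, showed no such slope, at 13905.0 and 13642 CPM with 1 gene and 12597 and 12742 CPM with 2. Of the 422 gated FAPs with at least 2 of the 4 genes, 180 were kept out by the upper limits. The Pi16 set kept out 73 of them, the Hsd11b1 set 126 and the tendon genes 9. The selected cells were not free of these sets. A gene of the Pi16 set was detected in 129 of them and a gene of the Hsd11b1 set in 169. Only 17 cells of the WT-labelled library and 12 of the KO-labelled library held no gene of the other sets.

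**Figure D1:**
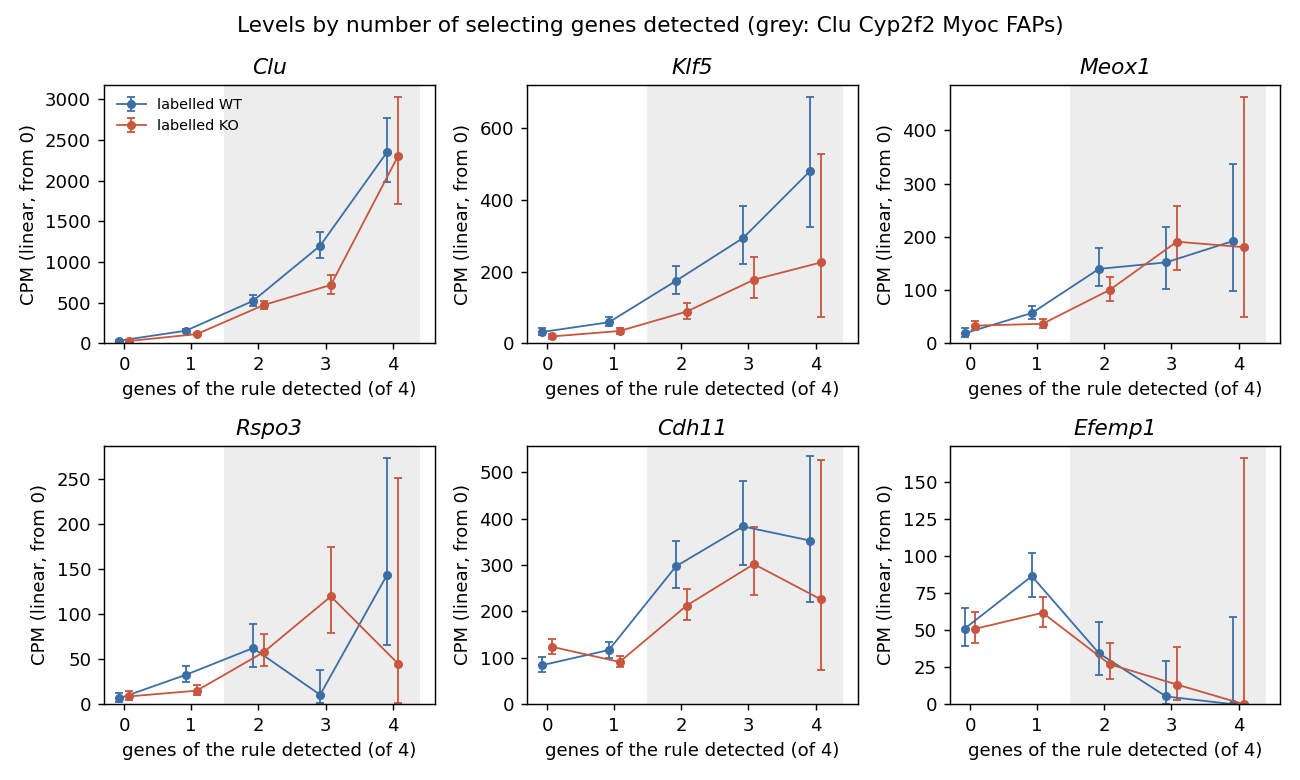
Levels of 6 genes in CPM (linear axis) against the number of the 4 selecting genes detected in a cell, for gated FAPs that were otherwise alike; points are summed levels of the WT-labelled (blue) and KO-labelled (red) libraries, bars are exact 95% counting intervals, and the grey field marks the selected cells. Clu runs from 33.6 and 31.3 CPM at none to 2356 and 2303 CPM at 4, Efemp1 is highest at 1 gene and 0 at 4, and the points at 4 rest on 7 and 3 cells.

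The name was checked against the 6 markers given for these cells. Cyp2f2, a selecting gene, was detected in 40.8% and 33.8% of the cells, so most of them lacked a read of it. Clu was detected in 61.2% of the cells (51.1 to 70.6) in the WT-labelled library and in 61.2% (52.5 to 69.3) in the KO-labelled library, against 14.8% and 14.7% of the other gated FAPs. In cells of an endothelial gate (Pecam1 and Cdh5 detected, Pdgfra and Ptprc at 0), which should lack FAP genes, Clu was detected in 8.28% and 6.62% at median depths of 5426.5 and 5139 UMIs. Klf5 was detected in 57.3% and 39.6%, Meox1 in 48.5% and 52.5% and Rspo3 in 22.3% and 31.7% of the cells. After thinning, Clu was still detected in 34.3% and 35.3% of the cells and in 5.25% and 4.48% of the other gated FAPs. Meox1 was also detected in 20.1% and 18.4% of cells in the endothelial gate, Stmn2 in 28.9% and 24.3% and Clec1a in 18.5% and 25.7%, so neither Meox1 nor these 2 selecting genes were confined to FAPs. Myoc, although a selecting gene, was detected in 65.1% and 69.6% of the other gated FAPs as well. FAP genes outside the rule were present at levels near those of other gated FAPs: Pdgfrb at 139 and 130 CPM against 124 and 115 CPM, and Ly6a, the surface antigen Sca-1, at 1105 and 1091 CPM against 984 and 1179 CPM.

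The genes that led these cells over the other gated FAPs were a mixture of transcription factors, receptors, secretory enzymes and adhesion molecules. Because the cells were chosen on other genes of the same contrast, these values are descriptions. Of 2311 genes outside the rule with at least 50 UMIs in each library, 46 (1.99%) were at least 2-fold higher in both libraries after 10 CPM had been added to each level, and the highest of them are described here. Clu stood at 863 CPM (796 to 933) in the WT-labelled library and 567 CPM (522 to 615) in the KO-labelled library, against 74.5 and 60.5 CPM in other gated FAPs, which is 11.6-fold and 9.36-fold higher. Klf5 stood at 233 CPM (199 to 271) and 111 CPM (91.9 to 134), 7.46-fold and 5.57-fold higher. Rspo3, at 55.7 CPM (39.8 to 75.9) and 71.3 CPM (55.9 to 89.7), was 3.42-fold and 6.27-fold higher and had too few UMIs in the WT-labelled library to enter the ranking. The selecting genes themselves stood at 144 and 112 CPM (Cyp2f2), 2910.1 and 2219 CPM (Myoc), 92.0 and 65.5 CPM (Stmn2) and 144 and 144 CPM (Clec1a).

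Among regulators, Meox1 was 4.12-fold and 4.11-fold higher, at 148 and 122 CPM, and Nr4a2, an orphan nuclear receptor of the immediate early class, 3.15-fold and 3.22-fold higher, at 1042 and 807 CPM. Meox2, the partner of Meox1, stood at 222 and 210.1 CPM against 72.5 and 86.5 CPM. Of the 25 mesenchymal transcription factors that could be compared, Klf5, Meox1 and Meox2 were the 3 at least 2-fold higher in both libraries and none was lower. Over all genes tested the shares were 1.99% higher and 0.751% lower. The gene lists also took in genes with too few UMIs for the ranking, so these shares are not of the same set. The receptors were of several families. Boc, a co-receptor for hedgehog ligands, stood at 279 and 301 CPM against 79.1 and 91.2 CPM, while the hedgehog targets Gli1 (10 and 4 UMIs) and Ptch1 (11 and 11 UMIs) were barely read. Ntrk2, the receptor of brain-derived neurotrophic factor, stood at 216 and 288 CPM, Prlr, the prolactin receptor, at 72.5 and 106 CPM, and Piezo2, a stretch-gated cation channel, at 124 and 114 CPM, each 2.70-fold to 3.65-fold above the other gated FAPs. Scara3 and Colec12, both of the scavenger receptor group, stood at 347 and 311 CPM and at 539 and 515 CPM.

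Secretory and matrix genes formed the next group. Cpe, the carboxypeptidase that trims prohormones, stood at 326 CPM (286 to 371) and 164 CPM (140 to 191), 9.32-fold and 4.62-fold higher, although cells of the endothelial gate also held 92.6 and 104 CPM. Penk, the precursor of enkephalins, stood at 290 and 209 CPM against 114 and 91.6 CPM, so that of 9 neuropeptide genes compared Cpe and Penk were higher and Pcsk6, Stmn4 and Gap43 lower. Gdf10, a ligand of the TGF-beta family, stood at 262 and 266 CPM. Otherwise alike gated FAPs with none of the 4 selecting genes held 222 and 272 CPM of Gdf10. Those with 1 of the genes held 112 and 114 CPM, so the level of Gdf10 was not particular to the selected cells. Of 25 genes of the TGF-beta and BMP list Fst and Nbl1, which bind and block ligands, were higher with Gdf10 while Ltbp1 and Bmp2 were lower. Beside these 2 lists, 1.99% of all genes tested were higher and 0.751% lower. Cdh11, the cadherin of mesenchymal cells, was 5.05-fold and 3.25-fold higher. The matrix genes Hmcn1 and Vit stood at 163 and 169 CPM and at 139 and 149 CPM. C3, the central complement protein, was lower, at 145 and 156 CPM against 590 and 628 CPM. Other leading genes were Tmem176a, Tmem176b, Plekha6, Arhgdib, Cstb, Cpxm2, Phlda3 and C1qtnf2, from 2.70-fold to 8.04-fold higher.

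**Figure D2:**
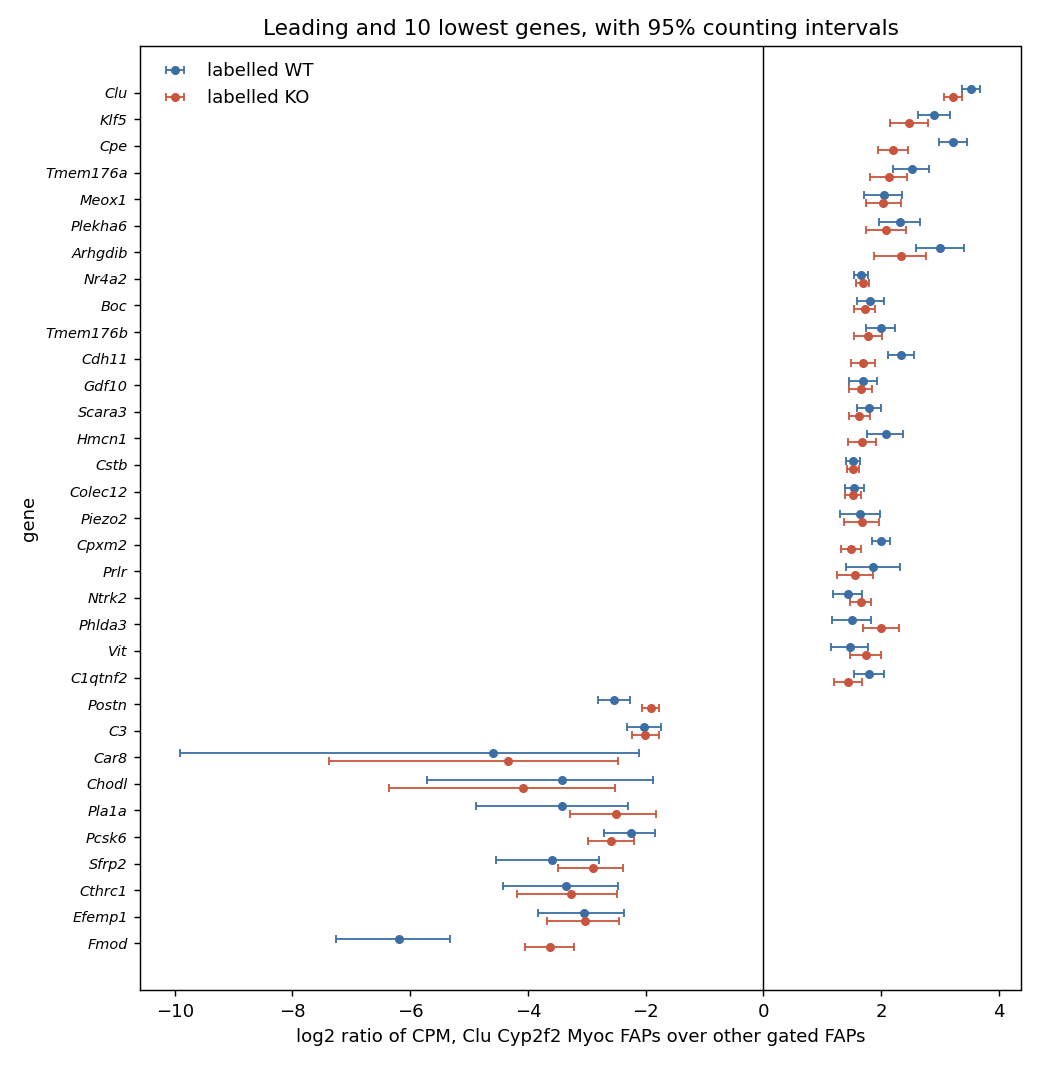
Log2 ratios of CPM in Clu Cyp2f2 Myoc FAPs over the other gated FAPs for leading genes and the 10 lowest genes, in the WT-labelled (blue) and KO-labelled (red) libraries, with exact 95% counting intervals. Clu, Klf5 and Cpe head the list, and the intervals of Car8 and Chodl are wide because each gave few UMIs. Leading genes were ranked by the smaller ratio of the libraries and the lowest genes by the larger. The shared direction of both libraries for the genes shown is thus set by this choice and is no separate result.

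Several matrix genes and a few WNT-binding genes were lower than in other gated FAPs, led by Fmod, Efemp1, Cthrc1 and Sfrp2. Of 9459 genes with at least 50 UMIs in the other gated FAPs of each library, 71 (0.751%) were at least 2-fold lower in both. The upper limits of the rule placed cells with more than 1 gene of the Pi16 or Hsd11b1 set among the other gated FAPs. Cells with more than 2 tendon genes were placed there too. Lower levels of the genes of such cells are thus partly set by the selection and are descriptions. Fmod, which encodes the collagen-binding proteoglycan fibromodulin, stood at 13.9 and 48.8 CPM against 1023 and 603 CPM. Efemp1 stood at 23.7 and 23.4 CPM against 196 and 191 CPM, Cthrc1, a secreted protein of matrix-forming fibroblasts, at 13.9 and 12.7 CPM against 143 and 123 CPM, and Postn, the injury-induced matrix protein periostin, at 156 and 403 CPM against 902 and 1518 CPM. Of 42 matrix genes compared, 9 were lower in both libraries (Fmod, Fn1, Fbn1, Eln, Mfap4, Spon1, Tnc, Postn and Efemp1) and 1 was higher, Mgp, an inhibitor of calcification, at 4711 and 5800.3 CPM against 1843 and 2460.2 CPM. The median log2 ratio of that list was -0.27 in both libraries, against 0.05 in both over the genes tested for higher levels. Of 15 WNT genes compared, Rspo3 was higher and Sfrp2, Sfrp4 and Wif1, which bind WNT ligands outside the cell, were lower. Sfrp2 stood at 16.7 and 28.3 CPM against 202 and 212 CPM. Rspo3 had too few UMIs in the WT-labelled library for the ranking, so the lists also compared genes outside the 2311 ranked. Among all genes tested, 1.99% were higher and 0.751% lower. Of the 12 genes taken from Pi16 FAPs outside the rule, 6 were lower and none higher, and of the 12 taken from Hsd11b1 FAPs none passed 2-fold in either direction. Pcsk6, Pla1a, Chodl and Car8 completed the 10 lowest.

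Genes of the nerve sheaths, which surround axons and bundles of axons, formed a pair of lists. Of 7 endoneurial genes compared, Etv1 and Meox1 were higher and Wif1 lower, against 1.99% higher and 0.751% lower over all genes tested. Etv1 stood at 59.9 and 75.2 CPM, with log2 ratios of 1.74 (1.22 to 2.22) and 1.86 (1.48 to 2.23). Sox9 differed little from the other gated FAPs in the WT-labelled library, at 102 CPM with a log2 ratio of -0.10 (-0.46 to 0.24), and stood at 169 CPM with 0.60 (0.37 to 0.83) in the KO-labelled library. Of the 10 perineurial genes 2 reached the count needed for a comparison and neither was higher, with median log2 ratios of -0.44 and -1.14. Below that count, the perineurial integrin Itgb4 gave 15 and 9 UMIs, 11.1-fold and 9.81-fold above the other gated FAPs, at 20.9 and 8.79 CPM. The tight-junction gene Cldn1 gave 10 and 2 UMIs. The other low-count genes of the list are not described, so no perineurial trait is read from these counts.

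The selected cells were divided into 2 kinds by the genes that had let them in, after the values had been seen. All cells with 3 or 4 selecting genes fell into the first kind by construction, so its values partly repeat those by number of genes and are descriptions. In 127 cells Cyp2f2 or Stmn2 was detected, 55 (53.4%) in the WT-labelled library and 72 (51.8%) in the KO-labelled library, and the other 115 cells had passed on Myoc and Clec1a only. Median depths were close, at 7301 and 7342 UMIs per cell in the first kind and 6549 and 7671 in the second. Of the 2311 genes compared, 4 (0.173%) were at least 2-fold higher in the first kind in both libraries and 7 (0.303%) at least 2-fold lower. S100a4, a calcium-binding protein of motile fibroblasts, stood at 684 and 858 CPM in the first kind against 75 and 221 CPM in the second. Clu stood at 1258 and 851 CPM against 372 and 261 CPM, Nr4a2 at 1376 and 1132 CPM against 628 and 458 CPM. Cpe had log2 ratios between the kinds of 1.10 and 1.48. In the Myoc Clec1a cells Mfap4, a protein of elastic microfibrils, stood at 444 and 498 CPM against 20.1 and 64.1 CPM, and Eln, which encodes elastin, at 381 and 549 CPM against 141 and 140 CPM. For both a single cell weighed heavily: 1 cell held 41.5% of the Mfap4 UMIs and 1 held 42.6% of the Eln UMIs of these cells in the WT-labelled library, and 24% and 47.6% in the KO-labelled library. Ccl11, the eosinophil chemokine eotaxin, was spread more widely, with UMIs in 72.9% and 65.7% of the Myoc Clec1a cells against 38.2% and 47.2%, and levels of 594 and 715 CPM against 262 and 325 CPM. Angptl1, Mest, Lamb1 and Oaf were the other 4 genes, with log2 ratios between -1.17 and -1.98.

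**Figure D3:**
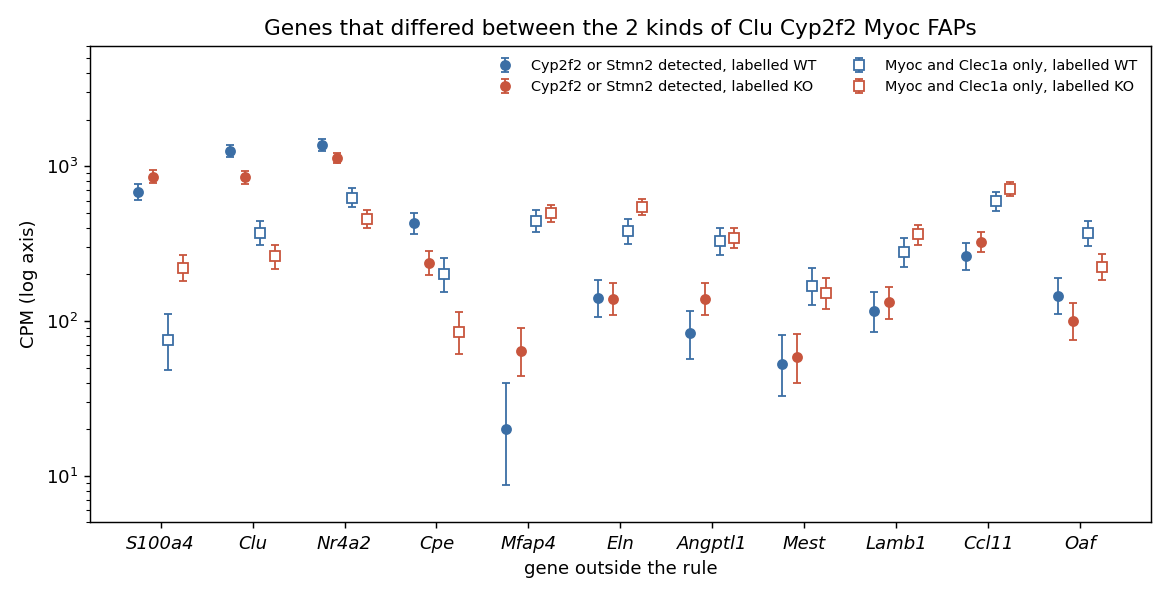
Levels in CPM (log axis) of the 11 genes at least 2-fold apart in both libraries between cells with Cyp2f2 or Stmn2 (filled circles) and cells with Myoc and Clec1a only (open squares), in the WT-labelled (blue) and KO-labelled (red) libraries, with exact 95% counting intervals. S100a4, Clu, Nr4a2 and Cpe lie higher in the first kind and the other 7 genes in the second.

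The share of these cells was compared between the genotypes first. They were 1.62% of all cells (1.33 to 1.96) in the WT-labelled library and 1.96% (1.65 to 2.31) in the KO-labelled library, or 0.343 points more (-0.119 to 0.802). Among gated FAPs they were 8.01% (6.58 to 9.63) and 8.02% (6.79 to 9.40), which lie 0.0114 points apart (-2.026 to 1.995). The intervals cover the counting of cells in these libraries and say nothing of the spread between animals. With each cell thinned to 1000 UMIs the share of gated FAPs was 4.82% and 2.67%, from 25 and 17 cells, a gap of -2.14 points. That gap is given without an interval, and the interval above belongs to the unthinned shares and does not apply to it. Hsd11b1 Mme FAPs, found by the same kind of rule, were 26.4% and 21.4% of gated FAPs, with -5.09 points between them (-8.23 to -1.97).

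Between the libraries the highest genes in the KO-labelled library were Cxcl9, Ccl2, Agpat4, Ccl7, Il6 and Thbs4, which include chemokines, a cytokine and a matrix protein. The lowest were Tpm3-rs7, Cebpb and Lars2. Of 4734 genes with at least 50 UMIs over both libraries, 32 (0.676%) were at least 2-fold higher in the KO-labelled library after 10 CPM had been added, and 22 (0.465%) at least 2-fold lower. The median log2 ratio over these genes was -0.03. Scaling by the median ratio of genes in place of all UMIs gave 41 higher and 17 lower.

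Ccl2 and Ccl7, which draw monocytes, stood together. Ccl2 was at 64.1 CPM (46.9 to 85.5) in the WT-labelled library and 386 CPM (349 to 426) in the KO-labelled library, a log2 ratio of 2.59 (2.15 to 3.06), and Ccl7 at 66.9 and 328 CPM, with a log2 ratio of 2.30 (1.86 to 2.76). UMIs of Ccl2 were found in 14.6% (8.39 to 22.9) and 28.1% (20.8 to 36.3) of the cells, and 1 cell of the KO-labelled library held 20.5% of that library's count. In the other gated FAPs Ccl2 was at 387 and 646 CPM, with a log2 ratio of 0.74 (0.68 to 0.79). The gap between the libraries in these cells therefore came with a level in the WT-labelled library that was below that of other FAPs, and the level in the KO-labelled library was also below theirs.

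Il6, the cytokine interleukin-6, was at 191 CPM (160.3 to 226) and 661 CPM (612 to 713), with a log2 ratio of 1.79 (1.53 to 2.07), with UMIs in 34.0% and 60.4% of the cells. Other gated FAPs gave nearly the same values, 163 and 572 CPM and a log2 ratio of 1.82 (1.74 to 1.89), and the endothelial gate stood at 96.1 and 187 CPM. The higher Il6 in the KO-labelled library was thus shared with the FAPs around these cells. Cxcl9 and Cxcl10, chemokines induced by interferon, were at 8.36 and 114 CPM and at 68.3 and 233 CPM. Cxcl9 rested on few cells: 4 in the WT-labelled library and 19 in the KO-labelled library, of which 1 held 34 of the 117 UMIs. The cells with 3 or 4 of the selecting genes gave 0 UMIs in both libraries, with upper interval bounds of 14.6 and 14.9 CPM. In the other gated FAPs Cxcl9 was 17.0-fold higher in the WT-labelled library and 1.60-fold higher in the KO-labelled library. The gap in the selected cells thus came with levels below those of other FAPs in both libraries. Ptx3, a soluble pattern recognition protein, was at 58.5 and 205 CPM, and Tnfaip3, the NF-kB feedback inhibitor A20, at 9.76 and 57.6 CPM. Ptx3, Cxcl10 and Thbs4 were lower in the KO-labelled library when at least 3 selecting genes were required, with log2 ratios of -2.29, -1.38 and -0.77.

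The list of cytokines and NF-kB feedback genes was read as a whole. Like the other gene lists, it was chosen with earlier results of these data known, so its values are descriptions. Of its 26 genes tested 7 were at least 2-fold higher in the KO-labelled library (Il6, Ccl2, Ccl7, Cxcl9, Cxcl10, Ptx3 and Tnfaip3) and none lower. Over all genes tested the shares were 0.676% and 0.465%. Its median log2 ratio was 0.78, against -0.03 over all genes tested. The intervals of 22 lay above 0, against 8.13% of the intervals over all genes tested, where 9.80% lay below 0. Csf1, the macrophage growth factor, was the gene whose interval lay below 0, at 151 and 108 CPM. The most abundant members were Cxcl1 at 1226 and 1939 CPM, Has1, a hyaluronan synthase, at 1040 and 1785 CPM, and Tnfaip6, a hyaluronan-binding protein, at 495 and 996 CPM.

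The bases before the start of each gene were searched, since members of this list differed in the same direction. Of the 32 higher genes 24 had an entry in the RefSeq promoter table (GRCm38.p6), which holds 31 starts of them, and of the 22 lower genes 15. In the 250 bases before the start, a match to the NF-kB motif on either strand was held by 6 of the 31 starts of higher genes (19.4%, in 5 genes) and by 1 of the 17 starts of lower genes. A match to the AP-1 motif was held by 4 of the 31 starts (12.9%) and by 2 of the 17. Il6, Cxcl10 and Tnfaip3, 3 of the 5 cytokine genes with an entry, each held both motifs. Of all 32851 starts listed there, 3.90% held the NF-kB motif, 6.75% the AP-1 motif TGANTCA, 1.55% the CRE motif TGACGTCA and 1.47% the serum response element. A match is a description of the letters in this window and was not tested for use. Among the 3 highest and 3 lowest genes, Agpat4 held an AP-1 match and Cxcl9, Cebpb and Lars2 held none of these motifs; Ccl2 and Tpm3-rs7 are named only. The 30 bases around every match of Agpat4, Il6, Cxcl10 and Tnfaip3 are shown because these are the genes with a match among the 12 highest, while Thbs4, Hspa1b, Ptx3, Serpina3n and Tpm3 held none. Il6, Cxcl10 and Tnfaip3 were added after their values and matches had been seen. Capitals mark the motif, and each line runs 5′ to 3′ along the strand of the gene.
Il6, NF-kB, plus strand, chr5:30013060-30013089: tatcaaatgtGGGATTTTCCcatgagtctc
Cxcl10, NF-kB, minus strand, chr5:92349029-92349058: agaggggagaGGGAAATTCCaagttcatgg
Cxcl10, NF-kB, minus strand, chr5:92348973-92349002: cggtttacagGGGACTTCCCtcgggttgcg
Tnfaip3, NF-kB, minus strand, chr10:19015411-19015440: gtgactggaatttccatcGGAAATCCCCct
Agpat4, AP-1, plus strand, chr17:12119133-12119162: gaaggagagggTGACTCAtgttacacgggg
Il6, AP-1, plus strand, chr5:30012864-30012893: cTGAGTCActtttaaagaaaaaaaagaaga
Cxcl10, AP-1, minus strand, chr5:92348945-92348974: cggagccttgcTGAGTCAtctccaaagtca
Tnfaip3, AP-1, minus strand, chr10:19015528-19015557: aaatgcccaggTGACTCAcgcggggacacc
Tnfaip3, NF-kB, minus strand, chr10:19015516-19015545: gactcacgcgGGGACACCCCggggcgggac

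Some heat shock genes were higher in the KO-labelled library. Of 15 tested, 4 were at least 2-fold higher (0.676% over all genes tested) and none lower. The median log2 ratio of the list was 0.61, and 12 intervals lay above 0, as did 8.13% of the intervals of all genes tested. Hspa1b, an inducible HSP70, was at 378 CPM (334 to 425) and 1099 CPM (1036 to 1165), with a log2 ratio of 1.54 (1.35 to 1.74), with 11.6% of the KO count in 1 cell. Hsph1, which recharges HSP70 with nucleotide, was at 127 and 359 CPM, and Dnajb1, its co-chaperone, and Hspa1a, the other inducible HSP70, had log2 ratios of 1.27 and 1.11. For Hspa1a 1 cell held 17.5% of the KO count, and without the highest cell of each library its log2 ratio was 0.99 (0.74 to 1.24), which leaves 3 heat shock genes past 2-fold. Hspa1a and Hspa1b are near-identical copies, so the split of reads between them is uncertain. In the other gated FAPs the log2 ratios of Hspa1b, Hspa1a and Dnajb1 were 2.12, 2.06 and 1.84, above the intervals found in these cells. Hspa5, the chaperone of the endoplasmic reticulum, had a log2 ratio of -0.08 (-0.20 to 0.05), an interval that held 0. Immediate early genes went both ways: of 23 tested, 1 was at least 2-fold higher (0.676% over all genes tested) and none lower. Of their intervals 10 lay above 0 and 9 below. Zfp36, an RNA decay factor, stood at 613 and 1353 CPM and Fosb at 3317 and 2162 CPM.

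**Figure D4:**
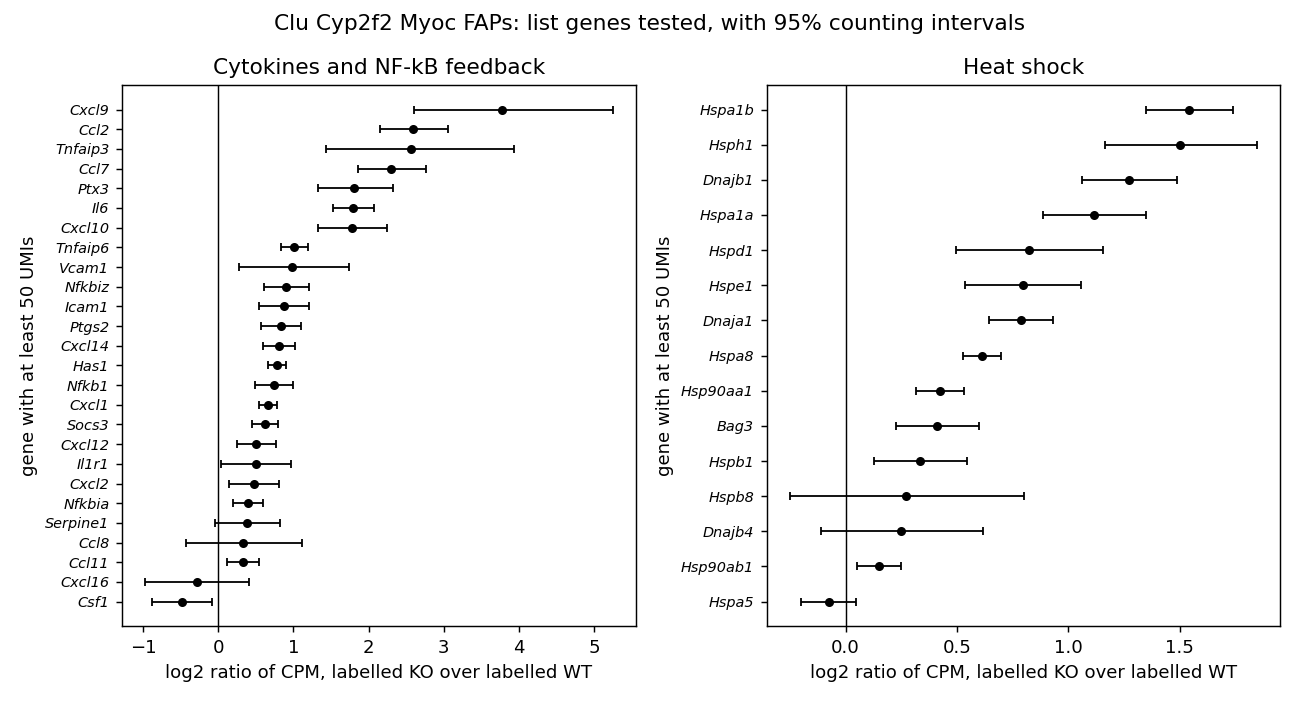
Log2 ratios of CPM between the KO-labelled library and the WT-labelled library in Clu Cyp2f2 Myoc FAPs, with exact 95% counting intervals, for the tested genes of the cytokine list (left, 26 genes) and the heat shock list (right, 15 genes). In the cytokine list 24 genes lie above 0 and Csf1 and Cxcl16 below; in the heat shock list 14 lie above 0.

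A small set of matrix genes was higher too. Thbs4, a thrombospondin of tendon and injured muscle, was at 202 CPM (171 to 238) and 690 CPM (640 to 743), with a log2 ratio of 1.77 (1.51 to 2.04), and Comp, its cartilage relative, at 104 and 265 CPM. Postn was at 156 and 403 CPM. Of 39 matrix genes tested these 3 and Fmod were at least 2-fold higher and none lower, against 0.676% and 0.465% of all genes tested. The median log2 ratio of the list was 0.03, against -0.03 over all genes tested. For Thbs4 the log2 ratio was 2.04 (1.72 to 2.38) in the Myoc Clec1a cells and 0.91 (0.45 to 1.38) in the cells with Cyp2f2 or Stmn2, and for Comp the values were 3.05 (2.24 to 3.99) and 0.34 (-0.12 to 0.82). The first of the Comp values rests on 13 UMIs in the WT-labelled library, and in the second 1 cell held 46.8% of the WT count. Cells with at least 3 selecting genes, all of them with Cyp2f2 or Stmn2, gave 2.69 for Comp, so no difference between the kinds is read from it. Tendon genes outside the rule took 0.297% and 0.359% of the UMIs, 3 of the 9 being the same genes Thbs4, Comp and Fmod, and their part in the result was not tested. Fmod gave 10 and 50 UMIs, of which 1 cell held 66.0% in the KO-labelled library; without the highest cell of each library its log2 ratio was 0.77 (-0.58 to 2.28). None of 18 collagens passed 2-fold, with Col3a1 at 11381 and 14787 CPM and Col1a1 at 7525 and 7778 CPM.

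The lower genes were led by Tpm3-rs7, at 187 and 6.84 CPM, and Cebpb, a transcription factor of inflammation and early fat formation. Tpm3-rs7 is a near-identical copy of the tropomyosin gene Tpm3, which was higher at 166 and 470 CPM; summed, the pair stood at 353 and 477 CPM, with a log2 ratio of 0.44 (0.21 to 0.66), so their separate values are uncertain. Cebpb was at 1054 CPM (980 to 1131) and 306 CPM (273 to 342), with a log2 ratio of -1.79 (-1.98 to -1.59), with UMIs in 90 of 103 and 94 of 139 cells. Its relative Cebpd went the other way, at 725 and 1524 CPM, with a log2 ratio of 1.07 (0.93 to 1.22). Both pointed the same way in other gated FAPs, with log2 ratios of -1.53 (-1.59 to -1.48) and 0.87 (0.83 to 0.90). Of 11 adipogenic genes tested these were the 2 past 2-fold, 1 in each direction, against 0.676% higher and 0.465% lower over all genes tested. Lars2, the mitochondrial leucyl-tRNA synthetase, was at 3338 and 1080 CPM, with a log2 ratio of -1.63 (-1.73 to -1.53), and at -1.64 (-1.67 to -1.62) in other gated FAPs. Hbegf, an EGF receptor ligand, was at 201 and 69.4 CPM, and Ifi27l2a, an interferon-induced gene, at 736 and 325 CPM. Ifi27l2a was the 1 of 23 interferon genes past 2-fold (0.465% lower over all genes tested), and the median of that list was -0.02. Wdfy1, Rnf213, Vgll3, Yod1, Sirt1, Pptc7 and Rasd1 completed the 12 lowest, with log2 ratios from -1.15 to -1.71. Of these, Vgll3, a cofactor of TEAD factors, and Pptc7, a mitochondrial phosphatase, stood at -0.06 (-0.24 to 0.11) and -0.15 (-0.37 to 0.07) in other gated FAPs.

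**Figure D5:**
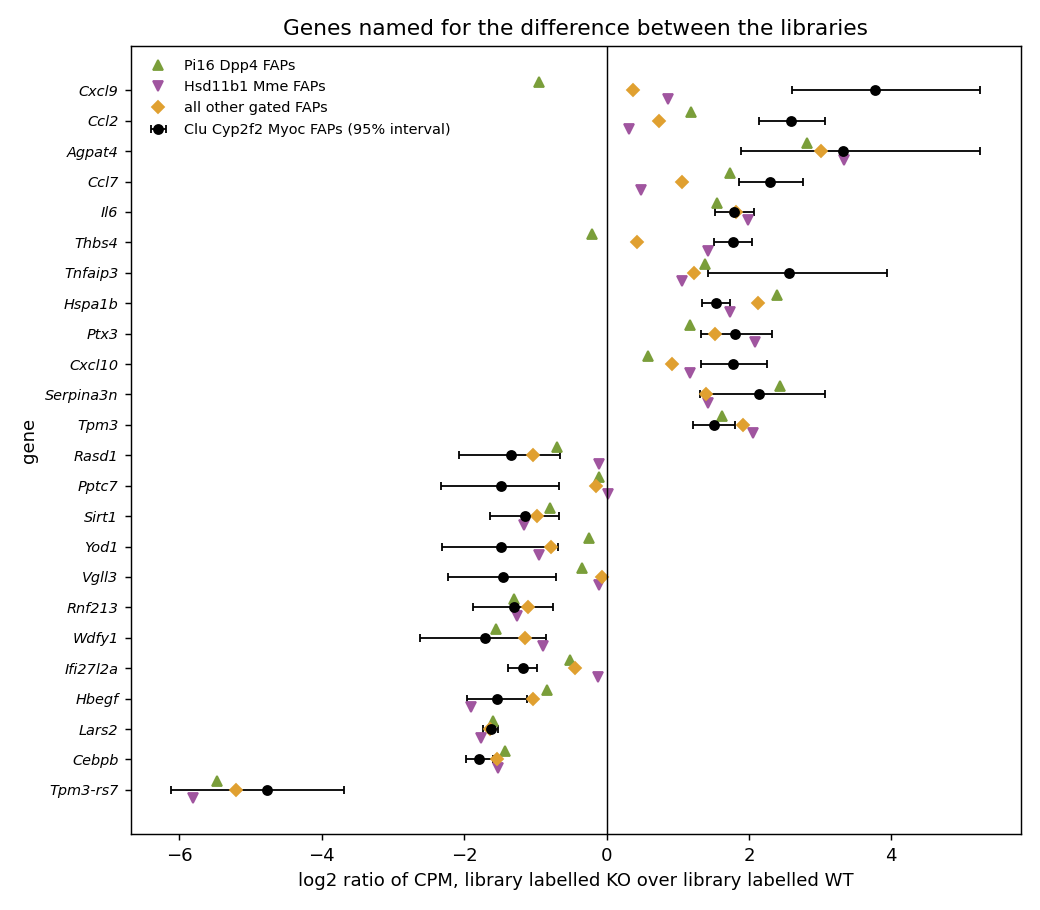
Log2 ratios of CPM between the KO-labelled library and the WT-labelled library for the 12 highest and 12 lowest genes of Clu Cyp2f2 Myoc FAPs (black circles, exact 95% counting intervals), with the values of Pi16 Dpp4 FAPs (green), Hsd11b1 Mme FAPs (purple) and all other gated FAPs (yellow). Il6, Agpat4, Cebpb and Lars2 lie close together in all groups, whereas Cxcl9 stands at 3.77 in these cells and at -0.95 in Pi16 Dpp4 FAPs. The value of 3.77 rests on 4 cells with UMIs in the WT-labelled library, where Cxcl9 was 17.0-fold higher in other gated FAPs.

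The remaining higher genes among the 12 named were Agpat4, an acyltransferase of phosphatidic acid synthesis, at 5.57 and 55.7 CPM, and Serpina3n, a protease inhibitor, at 19.5 and 86.0 CPM. Agpat4 had a log2 ratio of 3.32 (1.88 to 5.25), against 3.01 (2.69 to 3.36) in other gated FAPs. Of the genes that mark these cells, Klf5 was lower in the KO-labelled library by a log2 ratio of -1.06 (-1.42 to -0.71), Cpe by -0.99 (-1.28 to -0.70) and Clu by -0.61 (-0.77 to -0.44). Meox1 and Rspo3 had intervals that held 0, with -0.27 (-0.66 to 0.11) and 0.36 (-0.22 to 0.95). Within the cells with Cyp2f2 or Stmn2, Clu had a log2 ratio of -0.56 (-0.75 to -0.38) and Klf5 of -1.05 (-1.49 to -0.61), and within the Myoc Clec1a cells -0.51 (-0.88 to -0.14) and -1.02 (-1.64 to -0.41). Clu and Klf5 thus had intervals below 0 in each kind, but the first kind mixes cells with 2, 3 and 4 selecting genes. With 2 of them Clu stood at 523 CPM (459.5 to 593) and 473 CPM (426 to 524), intervals that overlap. With 3 it stood at 1201 CPM (1051 to 1367) and 719 CPM (613 to 839). With 4 it stood at 2356 and 2303 CPM, from 7 and 3 cells. Klf5 with 2 stood at 174 CPM (138.5 to 217) and 88.9 CPM (69.2 to 112.5). As a mean over cells the log2 ratio of Clu was -0.43. In other gated FAPs Clu and Klf5 had log2 ratios of -0.30 (-0.44 to -0.16) and -0.64 (-0.88 to -0.41), and Cpe of 0.02 (-0.18 to 0.22). Of 12 growth factor genes tested none passed 2-fold and the median was -0.43, with Igfbp6 at 3479 and 2522 CPM, Igfbp5 at 1491 and 1108 CPM and Igf1 at 663 and 896 CPM. The metallothioneins Mt1 and Mt2, which bind metals and answer to glucocorticoids, stood at 3626 and 6512 CPM and at 1808 and 2820.5 CPM, and of the 11 genes tested of that list none passed 2-fold.

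The other lists held few differences between the libraries. None of 19 mesenchymal transcription factors passed 2-fold, with Klf4, a zinc-finger factor of quiescent cells, at 2420 and 1624 CPM, with a log2 ratio of -0.58 (-0.67 to -0.48), and Klf2, its relative, at 389 and 517 CPM. None of 7 WNT genes passed 2-fold, with the WNT-binding protein Sfrp1 at 102 and 195 CPM, with a log2 ratio of 0.94 (0.55 to 1.35). Of 5 endoneurial genes none passed, although Sox9 had a log2 ratio of 0.73 (0.33 to 1.15), against 0.03 (-0.09 to 0.14) in other gated FAPs. In the same way none passed among 18 TGF-beta and BMP genes, 11 xenobiotic and redox enzymes, 10 neurotrophic and axon guidance genes, 9 complement genes, 8 transport genes, 5 hedgehog genes, 5 neuropeptide genes, 4 junction genes and 1 perineurial gene, whose medians lay between -0.43 and 0.14. The 8 genes of Pi16 FAPs and 11 of Hsd11b1 FAPs that were tested had none past 2-fold either, with medians of -0.28 and -0.02. Of 7 genes of matrix FAPs, 3 were higher (0.676% over all genes tested), again Fmod, Comp and Thbs4. For Fmod 1 cell held 66.0% of the UMIs of the KO-labelled library.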

How the data were processed

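Single-cell RNA was measured in 1 library per genotype. The authors aligned the reads to mm10 with Cell Ranger (2.1.1 in the submitters' processing notes, and another version in the study's methods), built the matrix in Seurat, removed doublets and removed cells with more than 10% mitochondrial RNA. The deposited values are the natural log of 1 plus UMIs per 10000 UMIs of a cell, in a table of 19169 genes by 13432 cells with no mitochondrial gene listed. Barcode endings give the library. UMIs were recovered by exponentiating and dividing by the value of a single UMI in the cell, and all 29528482 values lay within 0.247 of a whole UMI. The WT-labelled library held 44758518 UMIs and the KO-labelled library 50930009.

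The members and gene lists were chosen with earlier results of these data known. Levels are CPM of summed UMIs, with Poisson intervals for levels, binomial (Clopper-Pearson) intervals for shares, and ratios from the binomial share of UMIs. Intervals of differences between shares follow Newcombe. UMIs are not independent of the cell they come from, so the intervals leave out differences between cells and animals. Genes named are the 6 markers and 4 selecting genes, the 24 highest and 10 lowest against other gated FAPs (ranked by the smaller and the larger ratio of the 2 libraries), the 12 highest and 12 lowest between libraries (ranked by the interval bound nearest 0), the genes of 32 lists with the most UMIs or past 2-fold, and Gsdme, of which 1 leading gene is not reported here. Genes that separate the 2 kinds of cell, and Pdgfrb and Ly6a, were chosen after their values were seen. Alternatives were thinning to 1000 UMIs, at least 3 selecting genes, no upper limits, at least 2000 UMIs, Scrublet calls left out, means over cells, median scaling, 1 CPM added, at least 20 UMIs, cells with at most 1% of UMIs from other cell types, and comparison with Hsd11b1 Mme FAPs. The recovery of UMIs, the ratio intervals and the 2-fold call were tested on simulated data. The other steps were not. The work was done in Python 3.11.15, using scanpy 1.11.5, scipy 1.17.1, matplotlib 3.10.9, pandas 2.3.3 and numpy 2.4.6.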

Additional observations from a re-analysis of the deposited data

Results flagged for a closer look

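Of 107 genes described between the libraries, 4 had a counting interval on opposite sides of 0 in Clu Cyp2f2 Myoc FAPs and in the other gated FAPs when the KO-labelled library was set against the WT-labelled library. Myoc had a log2 ratio of -0.39 against 0.21, Cdh11 of -0.48 against 0.16, Igfbp5 of -0.43 against 0.11, and Fmod of 1.81 against -0.76. Myoc is a selecting gene, so its levels in both groups were partly set by the rule and nothing is read from them. The share of such genes over all genes tested was not counted, so these values are descriptions. Whether these differences are larger than those between animals was not tested, since each genotype had 1 library. Fmod rests on 10 and 50 UMIs, with 66.0% of the latter in 1 cell.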

How the results depend on the processing

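Shares of cells depended on the rule. Thinned to 1000 UMIs, the cells were 0.441% and 0.264% of all cells (labelled WT and KO, a difference of -0.177 points) and 4.82% and 2.67% of gated FAPs (-2.14 points). With at least 3 selecting genes they were 0.519% and 0.480%, and 2.57% and 1.96% of gated FAPs. Without upper limits they were 2.77% and 3.48%, and 13.7% and 14.2%. Among cells with at least 2000 UMIs the share in the KO-labelled library was 2.43%. Genes at least 2-fold higher in the KO-labelled library numbered 62 of 4734 with 1 CPM added and 54 of 7593 from 20 UMIs. With at least 3 selecting genes they numbered 20 of 1641, against 32 of 4734 in the main setting. Those lower numbered 51, 45 and 22 in the same order, against 22 in the main setting. The counts are thus not drawn from the same number of genes. Genes below the other gated FAPs numbered 207 with 1 CPM added and 175 with at least 3 selecting genes. By construction the stricter rule uses fewer cells and the lower UMI limit more genes. Otherwise the cause was not tested.

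With at least 3 selecting genes the log2 ratios of Thbs4, Ptx3, Cxcl10 and Fmod turned to -0.77, -2.29, -1.38 and -0.97. Over 33 genes and 5 settings, 141 values stayed within the main counting interval, 18 left it, 4 turned and 2 (Cxcl9 and Agpat4 with at least 3 selecting genes) could not be given. The 24 leading genes were each at least 2-fold higher under the 4 alternatives run. No cell had over 1% of its UMIs from other cell types, so that alternative left out none. Leaving out the cell with the most UMIs of a gene in each library, chosen after the data were seen, kept 30 of 32 higher genes past 2-fold (not Fmod and Hspa1a) and 20 of 22 lower genes (not 2200002D01Rik and Tnfaip1). No replicate could be left out, and no paired analysis was possible because each genotype had 1 library. Genes under 50 UMIs, Gsdme among them, are beyond this depth.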
